A study of Homo sapiens
Mus musculus with 5 samples.

Results

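Genes of synaptic vesicles and of regulated exocytosis were examined in tumors that human lung adenocarcinoma cells formed in the brain or in the lung of mice. The genes were chosen by symbol, not by their values: synaptotagmins (SYT), synapsins (SYN), SV2 proteins, synaptophysin (SYP), VAMP proteins, syntaxins (STX), SNAP23, SNAP25, SNAP29, SNAP47 and SNAP91, syntaxin-binding proteins (STXBP), complexins (CPLX), RAB3 proteins, and the granins SCG2, SCG3, SCG5, CHGA and CHGB. They make up 58 of 25524 genes in the human table and 69 of 24628 genes in the mouse table. The 5 libraries were 3 brain tumors and 2 orthotopic lung tumors, and the lung tumors had been seeded by injecting cells into the trachea. All came from H2030-BrM3, a derivative of the lung adenocarcinoma line NCI-H2030 selected for growth in the brain, and the hosts were athymic nu/nu mice, a strain with no thymus and few mature T cells. Each library holds RNA of both species, and the study asked how the tumor cells' transcriptome differs between the 2 organs and what the tumor-bearing brain expresses. No library of tumor-free brain or lung or of cultured cells was analysed here, and the labels do not say if each tumor had its own animal, so that p-values reflect nothing beyond the spread among these 5 libraries, which may be technical.

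Neurons store transmitter in small vesicles that fuse with the plasma membrane when calcium enters the nerve terminal. Fusion is driven by SNARE proteins: a VAMP on the vesicle pairs with a syntaxin and a SNAP protein on the target membrane, synaptotagmins sense calcium, and complexins, Munc18 proteins (STXBP) and RAB3 proteins regulate the step. Neuroendocrine cells release hormones from larger granules, filled with granins, by the same machinery. Other SNAREs of these families, such as SNAP23, VAMP3, VAMP8 and STX4, serve secretion and membrane traffic in most cell types.

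Values were RPKM, in which reads are divided by the length of the gene and the size of the library. The authors' scaling took each species' reads on their own, so that human and mouse RPKM are separate scales. Whole reads recovered from the RPKM came to at least 2445904 to 8419288 per library in the human table and to at least 231156 to 8636094 in the mouse table. Lung tumor 1 had the 231156 mouse reads, 3.4% of its total, against 24.4% to 77.9% mouse reads in the other libraries, and 11897 mouse genes were listed at 0 there, against 3756 to 6122 elsewhere. A single mouse read was therefore worth more RPKM in lung tumor 1 than in any other library. Each member was set between brain and lung tumors on log2(RPKM + 1) with limma's moderated test, adjusted by Benjamini-Hochberg over all tested genes of its species, and was called at an adjusted p under 0.05. A gene was tested where its RPKM was at least 1 in at least 2 libraries. Fold changes are on that log2(RPKM + 1) scale, brain minus lung, which understates the change of genes near 0.

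In the mouse table the machinery of neuronal release was higher in brain tumors. Of 69 members 66 were tested, 38 were higher in brain tumors and 5 were lower, at adjusted p under 0.05. The share higher was 57.6%, against 14.3% of all 15431 mouse genes tested, and the share lower was 7.58%, against 8.12%. In 44 tested members (66.7%) every brain tumor lay above both lung tumors, against 30.0% of all genes, and in 12 (18.2%) every brain tumor lay below, against 26.2%. The median log2 fold change of the 66 was 3.01, against 0.08 over all genes tested. A member passed the filter through brain tumors alone in 9 cases, 8 of them among the 38 higher, and these members had to differ. In bulk tissue, fewer cells of a type and less RNA per cell cannot be told apart.

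**Figure D1:**
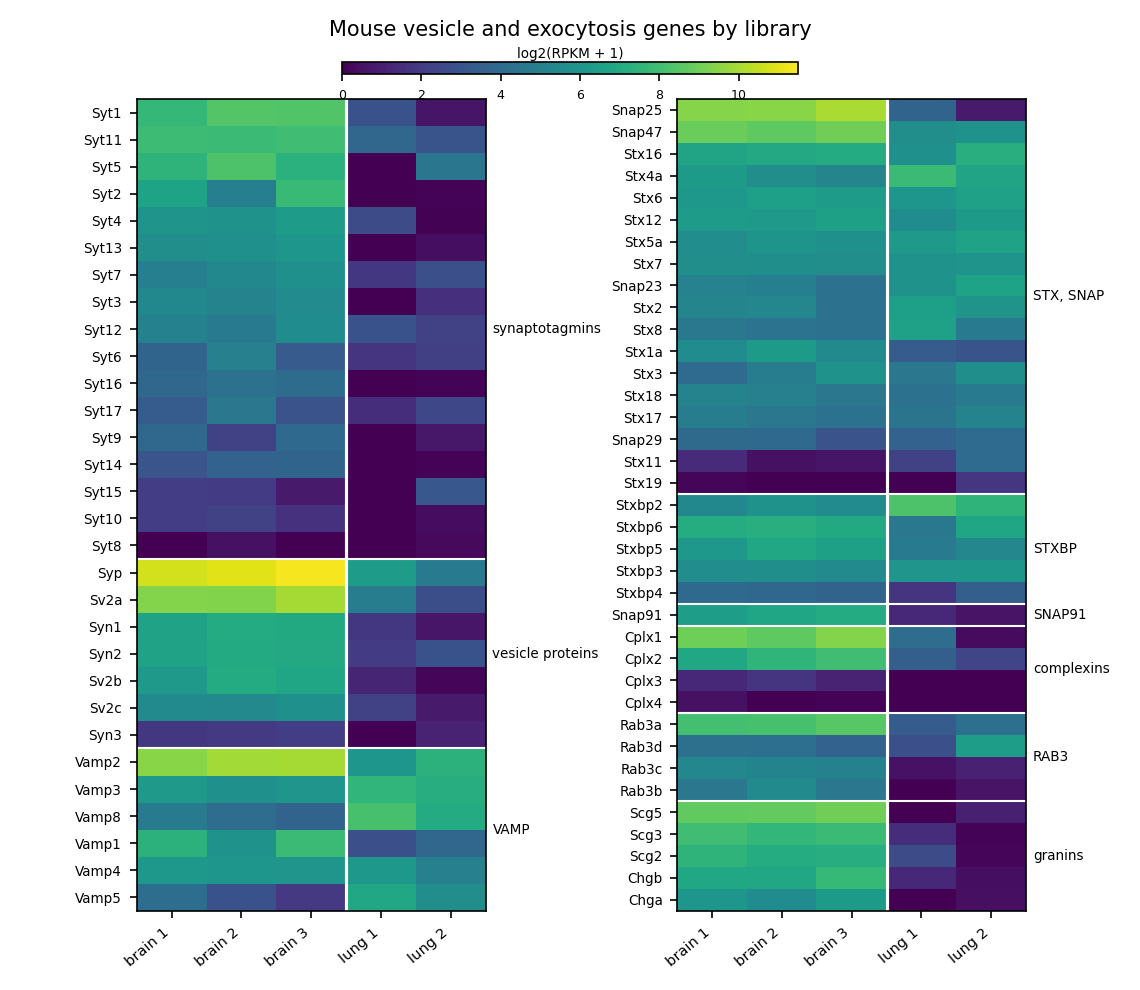
Mouse members by library, as log2(RPKM + 1) in colour, with rows grouped by role and ordered by mean level, brain tumors left of the white line and lung tumors right of it. Syp reached 1670.3 to 2573 RPKM in brain tumors, against 24.7 to 81.8 in lung tumors, while Vamp8, Stxbp2 and Stx4a were brighter in lung tumors.

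Lung tumor libraries held few reads of the 38 higher members. In lung tumor 1 they had 129 reads in all, with a median of 2 and a highest of 14 reads, and 11 of them had none. In lung tumor 2, which had more mouse reads than brain tumors 1 and 2, they had 3043 reads in all and a median of 9.5. The brain tumors gave 35471, 70546 and 158730 reads. The direction of all 43 calls held in every alternative run, and 27 of the 38 higher calls and 1 of the 5 lower calls (Vamp8) remained when each library was left out in turn.

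Synaptotagmins, the calcium sensors, were higher in brain tumors in 13 of 16 tested members and lower in none. Of those 13, Syt2, Syt9, Syt10, Syt13, Syt14 and Syt16 passed the filter through brain tumors alone, so that 6 of the 13 had to differ. Syt1, the fast calcium sensor of transmitter release, had 199.8, 345 and 327 RPKM in brain tumors, against 6.4 and 0.562 RPKM in lung tumors. The groups did not overlap, and the log2 fold change was 6.38 ± 0.69 (SE, adjusted p = 0.00304). Syt11, which does not bind calcium, had 236, 228 and 254 RPKM in brain tumors, against 13.0 and 7.03 RPKM in lung tumors. Its coefficient of variation across brain tumors was 5.57%, and its log2 fold change was 4.5 ± 0.34 (adjusted p = 0.00132). Syt13, another member without calcium binding, had 50.8, 53.5 and 65.1 RPKM in brain tumors, against 0 and 0.344 RPKM in lung tumors, where it had 0 and 7 reads. The log2 fold change was 5.62 ± 0.37 (adjusted p = 0.00115). Syt16 had 13.5, 18.8 and 15.5 RPKM in brain tumors, against 0 and 0.0684 RPKM in lung tumors (log2 fold change 4.02 ± 0.39, adjusted p = 0.00233). For Syt13 and Syt16 the lung tumors held at most 7 reads, and every brain tumor held at least 101.

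Syt5 was the third most abundant synaptotagmin, with 175, 309.8 and 162 RPKM in brain tumors, against 0 and 21.7 RPKM in lung tumors. Its log2 fold change of 5.44 ± 1.26 (adjusted p = 0.0303) missed the threshold when brain tumor 1, 2 or 3 was left out (adjusted p = 0.0957, 0.113 and 0.115), and the 2 lung tumors differed widely. The calls of Syt4, Syt7, Syt9, Syt10 and Syt12 also depended on single libraries. Without brain tumor 1, 2 or 3 the adjusted p of Syt4 was 0.0529, 0.0564 and 0.0694, that of Syt12 was 0.0648, 0.0548 and 0.0631, and that of Syt10 was 0.0974, 0.107 and 0.0632. Syt7, the slow sensor with high calcium affinity, reached 0.057 without brain tumor 2 and 0.0536 without brain tumor 3. Syt9 reached 0.0971 without brain tumor 1, 0.107 without brain tumor 3 and 0.0653 without lung tumor 1. Among the members that were not called, Syt6, Syt15 and Syt17 had log2 fold changes of 2.06, 0.07 and 1.63 (adjusted p = 0.0587, 0.965 and 0.117). Syt8 was not tested, with 0 to 2 reads in every library.

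Of the vesicle membrane proteins and synapsins, 6 of 7 were higher in brain tumors and none was lower. Syp encodes synaptophysin, a major protein of the vesicle membrane, and had the highest level of all mouse members. It had 1670.3, 2039 and 2573 RPKM in brain tumors, against 81.8 and 24.7 RPKM in lung tumors, or 2094 ± 454 against 53.3 ± 40.4 RPKM (SD, n = 3 and 2). Syp thus had a log2 fold change of 5.48 ± 0.56 (adjusted p = 0.00257). Every brain tumor lay far above both lung tumors, and Syp made up 18.1%, 20.2% and 20.7% of the summed RPKM of the 69 members in brain tumors, against 3.56% and 1.15% in lung tumors. Sv2a, a vesicle protein that binds the antiepileptic drug levetiracetam, had 652, 637 and 1003 RPKM in brain tumors, against 28.5 and 5.75 RPKM in lung tumors. The difference was 5.73 ± 0.65 on the log2 scale (adjusted p = 0.00348). Its relative Sv2b had 72.2, 135 and 111 RPKM in brain tumors, against 1.3 and 0.114 RPKM in lung tumors (log2 fold change 6.02 ± 0.48, adjusted p = 0.00142).

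Synapsins tether vesicles to the cytoskeleton. Syn1 had 96.5, 135 and 125 RPKM in brain tumors, against 2.61 and 0.629 RPKM in lung tumors, and Syn2 was close to it in brain tumors, with 96.4, 130.0 and 121 RPKM, against 3.11 and 6.35 RPKM in lung tumors. Their log2 fold changes were 5.61 ± 0.44 and 4.4 ± 0.38 (adjusted p = 0.00141 and 0.00177). Syn3, the synapsin with the lowest level, had 2.61, 2.88 and 3.31 RPKM in brain tumors, against 0 and 1.16 RPKM in lung tumors, and was not called (log2 fold change 1.42 ± 0.47, adjusted p = 0.0823). Syn3 was called without lung tumor 2 (log2 fold change 1.97, adjusted p = 0.00939), as were 8 other mouse members that the full comparison did not call, in a fit where 33.3% of all mouse genes were higher and 20.3% lower.

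The vesicle SNAREs split. Of 6 tested members 2 were higher in brain tumors and 3 lower. Vamp2, synaptobrevin of nerve terminals, had 701, 959 and 977 RPKM in brain tumors, against 64.3 and 169 RPKM in lung tumors (log2 fold change 3.05 ± 0.48, adjusted p = 0.00978). Vamp1 had 167, 56.7 and 229.6 RPKM in brain tumors, against 6.06 and 13.0 RPKM in lung tumors (log2 fold change 3.71 ± 0.67, adjusted p = 0.0142). In both genes the groups stood apart, with Vamp1 lowest in brain tumor 2 and Vamp2 lowest in brain tumor 1 among the brain tumors. Vamp2 missed the threshold when brain tumor 2 or 3 was left out (adjusted p = 0.0594 and 0.0624), as did Vamp1 when brain tumor 1 or 3 was (0.0671 and 0.0687).

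Vamp8, which serves secretory granules of gland and blood cells, had 26.1, 16.1 and 11.6 RPKM in brain tumors, against 285 and 134 RPKM in lung tumors. It fell by 3.45 ± 0.49 on the log2 scale (adjusted p = 0.00685), and its call remained in every alternative run. Vamp3, the ubiquitous cellubrevin of recycling endosomes, had 73.7, 54.0 and 62.6 RPKM in brain tumors, against 189.7 and 143 RPKM in lung tumors. It fell by 1.37 ± 0.30 (adjusted p = 0.0271). Vamp5, known from muscle, fell by 3.3 ± 0.74 (adjusted p = 0.028), with 16.8, 6.39 and 2.73 RPKM in brain tumors, against 115 and 50.7 RPKM in lung tumors. Brain tumors lay below lung tumors in all 3 genes. Leaving out brain tumor 1, 2 or 3 took Vamp3 above the threshold (adjusted p = 0.0837, 0.137 and 0.103), and leaving out brain tumor 2, brain tumor 3 or lung tumor 1 did so for Vamp5 (0.107, 0.088 and 0.0829). Vamp4, of the trans-Golgi network, was not called (log2 fold change 0.51, adjusted p = 0.392). Without lung tumor 1, where 16.1% of all mouse genes were higher and 13.7% lower, its log2 fold change was 1.07 (adjusted p = 0.0222).

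Among the syntaxins and SNAP proteins of target membranes, 4 of 18 tested members were higher in brain tumors, 1 was lower and 13 were not called. Over all mouse genes tested, 14.3% were higher and 8.12% lower. The median log2 fold change of the 18 was -0.2, against 0.08 over all genes, so that this role as a whole was not shifted toward brain tumors. Snap25, a SNARE of nerve terminals, had 677, 703 and 1066 RPKM in brain tumors, against 12 and 0.786 RPKM in lung tumors, from 3974, 7472 and 19909 reads against 6 and 9 reads. Snap25 differed by 7.38 ± 0.83 on the log2 scale (adjusted p = 0.00331). Every brain tumor stood far above the lung tumors. Snap47, a relative of SNAP25 found in many tissues, had 473, 398 and 509 RPKM in brain tumors, against 51.1 and 56.3 RPKM in lung tumors (log2 fold change 3.07 ± 0.29, adjusted p = 0.00219). Its level in the lung tumors was thus well above that of Snap25, while both had at least 398 RPKM in brain tumors. Stx1a had 46.6, 76.8 and 43.0 RPKM in brain tumors, against 9.13 and 6.81 RPKM in lung tumors (log2 fold change 2.62 ± 0.39, adjusted p = 0.00772, or 0.0525 without brain tumor 2).

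Snap23, the broadly expressed counterpart of SNAP25, was the 1 lower member, with 32.8, 29.9 and 19.1 RPKM in brain tumors, against 58.6 and 102 RPKM in lung tumors. It fell by 1.51 ± 0.40 (adjusted p = 0.0468). Its call was lost without any 1 of the 3 brain tumors (adjusted p = 0.109, 0.142 and 0.144) or without lung tumor 2 (0.0594). Snap23 and Stx1a are given here after their values were seen. The other 13 members, syntaxins of the Golgi, endosomes, endoplasmic reticulum and plasma membrane together with Snap29, had log2 fold changes between -2.27 (Stx11) and 0.44 (Stx12), with adjusted p between 0.0561 and 0.977. Leaving out lung tumor 1 brought Stx11 and Stx5a under the threshold (log2 fold changes -3.18 and -0.87, adjusted p = 0.0107 and 0.0477). Leaving out lung tumor 2 did so for Stx12, Stx16, Stx4a and Stx8 (0.77, 1.14, -2.13 and -2.15, adjusted p = 0.0431, 0.0147, 0.0144 and 0.00361). Stx6 and Stx7, both endosomal, were near equal in both organs, with means of 78.9 and 51.0 RPKM in brain tumors, against 80.8 and 59.4 RPKM in lung tumors. Stx19 was not tested, with 38 reads in lung tumor 2 and 0 or 1 elsewhere.

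Syntaxin-binding proteins also went both ways, with 2 of 6 higher, 1 lower and 3 not called. Stxbp2, Munc18-2, which acts in granule release of immune and epithelial cells, had 39.9, 57.9 and 45.3 RPKM in brain tumors, against 314 and 175 RPKM in lung tumors. It fell by 2.29 ± 0.37 (adjusted p = 0.0103). Every brain tumor lay below both lung tumors. Stxbp5, tomosyn, an inhibitor of SNARE assembly, had 69.8, 117 and 90.7 RPKM in brain tumors, against 25 and 38.5 RPKM in lung tumors (log2 fold change 1.51 ± 0.36, adjusted p = 0.0343). Stxbp6, amisyn, had 136, 147 and 127 RPKM in brain tumors, against 23.6 and 108 RPKM in lung tumors, and was not called (log2 fold change 1.41 ± 0.63, adjusted p = 0.159). Leaving out lung tumor 2 gave 2.48 (adjusted p = 0.00181) for Stxbp6 and 2.07 (adjusted p = 0.00659) for Stxbp4. Stxbp2 missed the threshold when any 1 brain tumor was left out (adjusted p = 0.0559, 0.0501 and 0.0615), as did Stxbp5, also without lung tumor 1 (0.0793, 0.149, 0.123 and 0.0551). Snap91, a clathrin adaptor that retrieves vesicle membrane in nerve terminals and is no SNARE, had 86.3, 107 and 132 RPKM in brain tumors, against 1.5 and 0.525 RPKM in lung tumors (log2 fold change 5.79 ± 0.39, adjusted p = 0.00115).

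Complexins clamp and then promote fusion, and 2 of 3 tested were higher in brain tumors. Cplx1 had 500.4, 394 and 668 RPKM in brain tumors, against 16.1 and 0.282 RPKM in lung tumors, where it had 5 and 2 reads. Its log2 fold change was 6.77 ± 1.05 (adjusted p = 0.00893, or 0.0618 without brain tumor 3). Cplx2 had 113, 184 and 248 RPKM in brain tumors, against 10.3 and 4.24 RPKM in lung tumors (log2 fold change 4.5 ± 0.5, adjusted p = 0.00323). Cplx3, known from retinal ribbon synapses, had 12, 35 and 29 reads in brain tumors, against 0 reads in both lung tumors, and was not called (adjusted p = 0.0511). It was under the threshold in 5 of the alternatives run, at adjusted p between 0.0257 and 0.0452. Cplx4 had at most 2 reads and was not tested.

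RAB3 proteins are the GTPases of secretory vesicles, and 3 of 4 were higher in brain tumors. Rab3a, the main form at synapses, had 265, 281 and 366 RPKM in brain tumors, against 9.24 and 18.1 RPKM in lung tumors (log2 fold change 4.43 ± 0.38, adjusted p = 0.00176). Rab3c had 39.1, 35.6 and 32.3 RPKM in brain tumors, against 0.496 and 1.11 RPKM in lung tumors, and Rab3b had 22.7, 42.6 and 22.7 RPKM in brain tumors, against 0 and 0.521 RPKM in lung tumors. Their log2 fold changes were 4.36 ± 0.38 and 4.56 ± 0.48 (adjusted p = 0.00181 and 0.00277). All 3 neuronal forms were thus separated between organs, but Rab3b passed the filter through brain tumors alone and had to differ. Rab3d, known from exocrine granules, was not called: it had 18.2, 17.5 and 11.4 RPKM in brain tumors, against 6.07 and 84.2 RPKM in lung tumors, where the lower value rested on 1 read. Its log2 fold change was -0.58 ± 1.02, and leaving out lung tumor 2 gave 1.21 (adjusted p = 0.0477), leaving out lung tumor 1 gave -2.38 (0.011), so that the lung tumor used set its direction.

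All 5 granins of dense-core granules were higher in brain tumors, of which Chga passed the filter through brain tumors alone and had to differ. Scg5, the chaperone of a prohormone convertase, had 413, 429 and 519.9 RPKM in brain tumors, against 0 and 1.03 RPKM in lung tumors, from 1031, 1940 and 4130 reads against 0 and 5 reads. Its log2 fold change of 8.31 ± 0.39 (adjusted p = 0.00112) exceeded that of every other mouse member tested. Scg3, which sorts granins to granules, had 251, 193 and 225 RPKM in brain tumors, against 1.87 and 0.0822 RPKM in lung tumors (log2 fold change 6.98 ± 0.48, adjusted p = 0.00115). Scg2, the precursor of secretoneurin, had 177, 138 and 144 RPKM in brain tumors, against 5.23 and 0.153 RPKM in lung tumors (log2 fold change 5.83 ± 0.71, adjusted p = 0.00418). Chga had 65.1, 48.0 and 76.2 RPKM in brain tumors, against 0 and 0.393 RPKM in lung tumors (log2 fold change 5.74 ± 0.40, adjusted p = 0.00115). No granin had more than 5 mouse reads in a lung tumor, and the 5 calls remained when each library was left out.

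**Figure D2:**
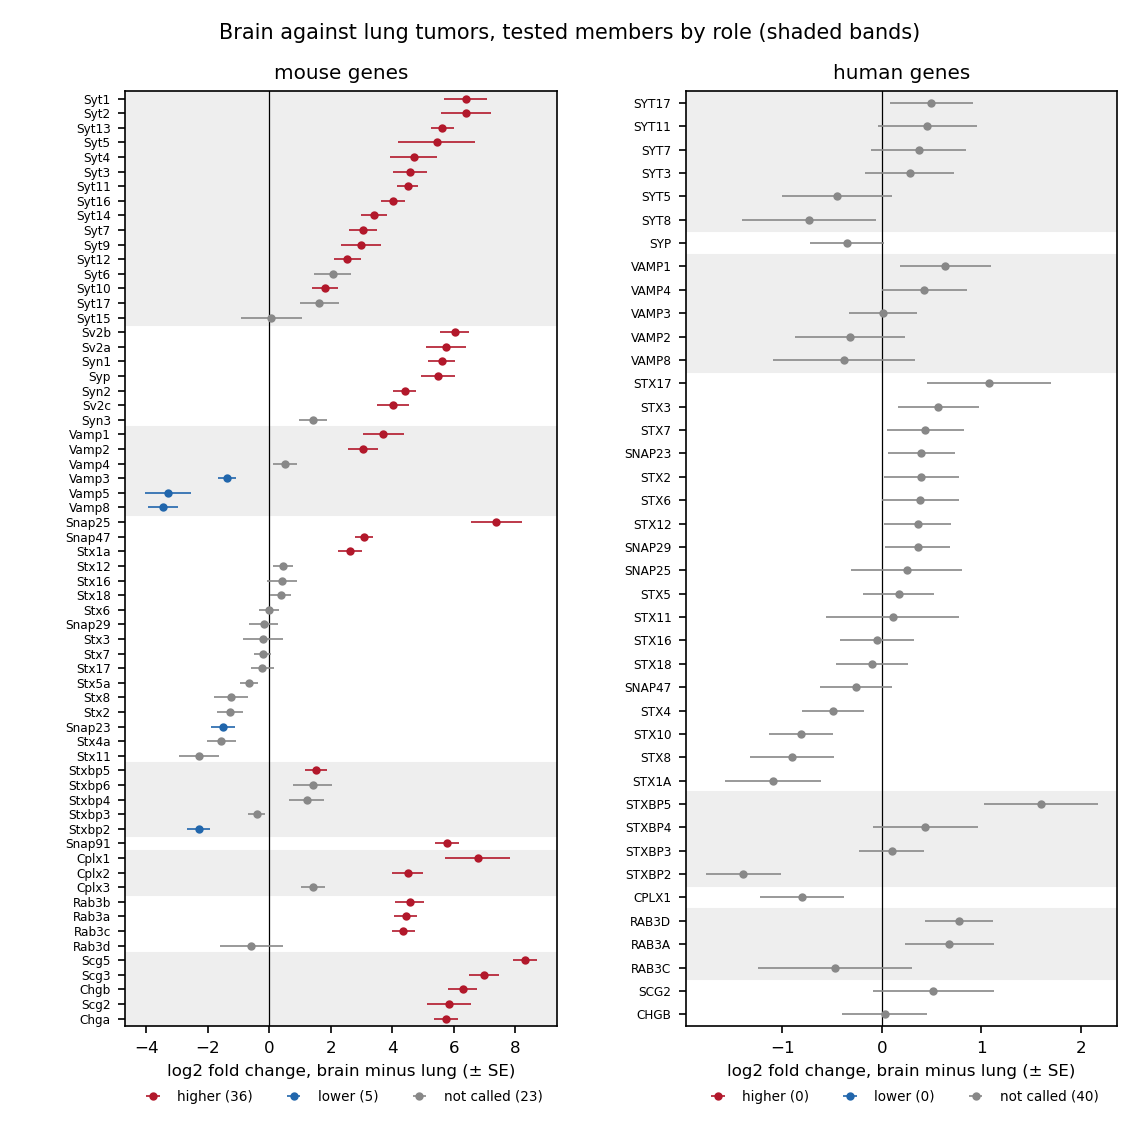
Log2 fold changes, brain minus lung tumors, with standard errors, of 64 mouse and 40 human members tested, in shaded bands by role (from top: synaptotagmins, vesicle proteins, VAMP, syntaxins with SNAP, STXBP, Snap91 in mouse alone, complexins, RAB3, granins). Mouse members ran between -3.45 and 8.31, with 36 of those shown called higher and 5 lower, and human members between -1.39 and 1.6, with none called, on axes of different range.

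Several families hold a neuronal form and a widely expressed one. For 4 such pairs, chosen after their values were seen, the share of the first gene in the RPKM of both was taken. Mouse Snap25 made up 95.4%, 95.9% and 98.2% of Snap25 with Snap23 in brain tumors, against 16.9% and 0.764% in lung tumors. The neuronal form was thus the larger part in brain tumors and the smaller part in lung tumors. Vamp2 was 96.4% to 98.8% of Vamp2 with Vamp8 in brain tumors, against 18.4% and 55.7% in lung tumors, and 90.5% to 94.7% of Vamp2 with Vamp3 in brain tumors, against 25.3% and 54.2% in lung tumors. Rab3a was 93.6% to 97.0% of Rab3a with Rab3d in brain tumors, against 60.3% and 17.7% in lung tumors. The 60.3% of lung tumor 1 rested on 3 reads of Rab3a and 1 of Rab3d. Its 16.9% for Snap25 rested on 6 reads of Snap25 and 11 of Snap23. The groups were apart in all 4 pairs, and the lung tumors differed more from each other than the brain tumors did. For Snap25 with Snap23, and for Vamp2 with Vamp8 or Vamp3, both genes had already been called, in opposite directions and without overlap. Their shares therefore had to be apart and add nothing to those calls. Stx4a, the plasma membrane syntaxin of non-neuronal cells, was not called (75.1, 50.5 and 37.1 RPKM in brain tumors, against 231 and 105 RPKM in lung tumors, log2 fold change -1.56, adjusted p = 0.0663). RPKM of different genes depend on gene lengths whose definition is not given in the sources used here, and these shares with them.

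**Figure D3:**
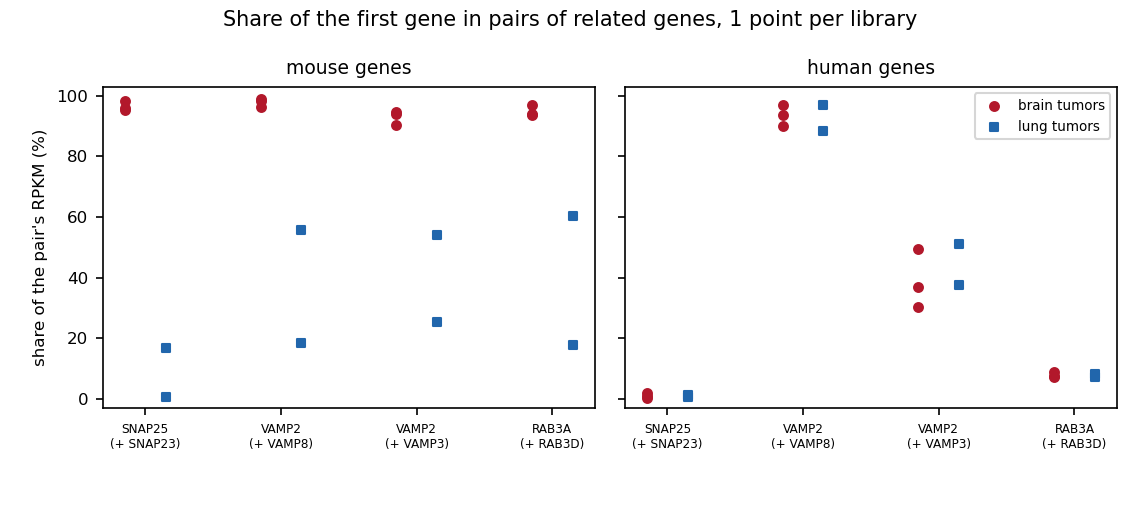
Share, in percent, of the first gene of each pair in the summed RPKM of the pair, with 1 point per library, brain tumors as red circles and lung tumors as blue squares to their right. Mouse brain and lung tumors were apart in all 4 pairs, as for SNAP25 with SNAP23 (95.4% to 98.2% in brain tumors, against 0.764% and 16.9% in lung tumors), and human libraries overlapped in all 4.

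The 3 brain tumors resembled one another in most mouse members. Over the 61 members with a mean of at least 5 RPKM in brain tumors, the median coefficient of variation was 21.0%, and it was under 50% in 54 of them. Among the most variable was Syt2, a fast calcium sensor like Syt1, which was higher in brain tumors (log2 fold change 6.38, adjusted p = 0.00475) with 99.8, 29.8 and 211 RPKM there, against 0 and 0.0955 RPKM in lung tumors. Vamp1 followed the same order of libraries, lowest in brain tumor 2 and highest in brain tumor 3. Syt6 and Syt17 were instead highest in brain tumor 2, with 12, 30.9 and 8.86 RPKM and with 9.33, 22.9 and 6.78 RPKM in the 3 brain tumors, against at most 4.62 RPKM in lung tumors. Syt2, Syt6 and Syt17 are named here after their values were seen.

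Other mouse genes of the release cycle were listed from textbook knowledge, and their counts stand beside the 14.3% higher and 8.12% lower over all mouse genes. Of 23 active zone and priming genes, 16 were higher in brain tumors and none lower, among them Lin7b, a scaffold protein (41.1, 48.3 and 34.0 RPKM in brain tumors, against 0 reads in both lung tumors), and Cadps, which primes dense-core granules (log2 fold change 4.8, adjusted p = 0.00263). Of the 16, 9 passed the filter through brain tumors alone and had to differ, Lin7b among them. Of 14 further vesicle proteins tested 10 were higher, led by the proton pump subunit Atp6v1g2 and by Rph3a, a RAB3A effector (log2 fold changes 6.61 and 6.48, adjusted p = 0.00618 and 0.00112), and 1 was lower, Syngr2. Rph3a was 1 of 3 among the 10 that passed through brain tumors alone. Leaving out brain tumor 3 took Atp6v1g2 above the threshold (0.0507). Of 8 transmitter transporters 5 were higher, including the vesicular glutamate transporter Slc17a7 (119, 299 and 246 RPKM in brain tumors, against 7.74 and 0.815 RPKM in lung tumors, adjusted p = 0.00547) and the zinc transporter Slc30a3 (adjusted p = 0.0023), and 1 was lower, Slc17a9; 3 of the 5 passed through brain tumors alone. Syngr2 and Slc17a9 are named after their values were seen. Both lower calls were lost when any 1 brain tumor was left out (adjusted p = 0.0603 to 0.101 for Syngr2 and 0.0605 to 0.156 for Slc17a9). Of 8 prohormone processing genes 7 were higher, 2 of which (Vgf and Pcsk1) passed through brain tumors alone, led by Vgf and Pcsk1n (log2 fold changes 6.02 and 5.97, adjusted p = 0.00112 and 0.0098). Pcsk1n missed the threshold when brain tumor 2 or 3 was left out (0.0514 and 0.0633). Of 8 tested genes of a list of neuroendocrine genes with Rest, 1 was higher (12.5%), the adhesion molecule Ncam1 (log2 fold change 3.0, adjusted p = 0.046, and 0.135 to 0.157 when 1 brain tumor was left out).

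Parts of the cycle shared with all cells were listed too. Of 12 genes of SNARE disassembly and the exocyst, 3 were higher (25%, against 14.3% of all mouse genes), with Napb, the brain form of an NSF adaptor, at a log2 fold change of 5.68 (adjusted p = 0.00115) and the ATPase Nsf at 3.11 (adjusted p = 0.0036). Of 21 endocytosis genes 7 were higher (33.3%), led by Sh3gl2 and Amph (log2 fold changes 4.71 and 4.63, adjusted p = 0.00159 and 0.0353), and none was lower. Amph missed the threshold when any 1 brain tumor was left out (0.104 to 0.143).

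Markers of whole cell types moved with these calls in the mouse table. Neuronal genes outside the vesicle were higher in brain tumors in 16 of 17, of which 6 passed the filter through brain tumors alone, led by Camk2a and Gad1 (log2 fold changes 7.79 and 6.66), and their RPKM summed to 4402, 5259 and 4993 in brain tumors, against 309.7 and 141 in lung tumors. Astrocyte markers were higher in 8 of 8 (sums of 13477 to 15156 in brain tumors, against 164 and 249 in lung tumors), and oligodendrocyte markers in 8 of 8 (2627 to 5380.5 against 35.9 and 45.0), and 1 of each 8 passed through brain tumors alone. Lung epithelial markers were lower in 5 of 7 tested, led by Sftpc and Scgb1a1, with sums of 25.2 to 69.9 in brain tumors, against 952 in lung tumor 1 and 64890.3 in lung tumor 2. Endothelial and blood markers (sums of 135 to 447 in brain tumors, against 8449 and 3400.2 in lung tumors) were lower in 3 of 9. The 3 were the blood genes Hbb-bs, Hba-a1 and Itga2b. The endothelial genes Pecam1, Cdh5, Cldn5 and Vwf were not called (adjusted p = 0.143, 0.176, 0.846 and 0.736). Cldn5 had a log2 fold change of -2.52 without lung tumor 1 and of 1.78 without lung tumor 2. Of 8 microglia and macrophage markers none was higher and 1 was lower, Mrc1. Over all mouse genes tested, 14.3% were higher and 8.12% lower. The list did not move as one. P2ry12, not called (adjusted p = 0.166), had a log2 fold change of 2.73 without brain tumor 3 (adjusted p = 0.0451). Cd68, also not called (adjusted p = 0.177), had one of -3.43 without lung tumor 2. P2ry12 and Cd68 are named after their values were seen. The calls of Sftpc, Scgb1a1, Hbb-bs, Hba-a1, Itga2b and Mrc1 each depended on single libraries. Their adjusted p reached 0.122, 0.118, 0.0747, 0.0656, 0.0713 and 0.0952 when 1 brain tumor was left out. Among the higher markers, the calls of Eno2, Stmn2, Thy1, Tubb3, Uchl1, Gja1 and Mog were lost without brain tumor 3 (adjusted p between 0.0565 and 0.102). Of the neuronal markers 8 were at 0 in lung tumor 1 and 2 in lung tumor 2, and none was at 0 in a brain tumor. The part of each cell type in the members' differences was not tested.

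In the human table no member was called between brain and lung tumors. Of 58 members 42 were tested and limma called 0 higher and 0 lower, against 0.00693% of 14423 human genes higher (1 gene) and 0.0% lower. At an unadjusted p under 0.05 there were 3 members (7.14%), against 10.5% of all genes, and limma's voom fit on the recovered reads also called 0. In 7 members (16.7%) every brain tumor lay above both lung tumors, against 17.4% of all genes, and in 7 (16.7%) every brain tumor lay below, against 12.3%. The median log2 fold change was 0.26, against 0.09 over all genes tested, and adjusted p ran between 0.418 and 0.992. Without lung tumor 2 the median was 0.41, against 0.25 over all genes, and without lung tumor 1 it was -0.04, against -0.01. Without lung tumor 2, 4 members were called: STX17 and STXBP5 higher (adjusted p = 0.0218 and 0.0225) and STXBP2 and VAMP8 lower (0.0228 and 0.0486). In that fit 8.42% of all human genes were called higher and 4.78% lower. Of the 58 members 16 were not tested, among them SYN1, all 3 SV2 genes, SNAP91, CHGA and 6 of 12 synaptotagmins.

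**Figure D4:**
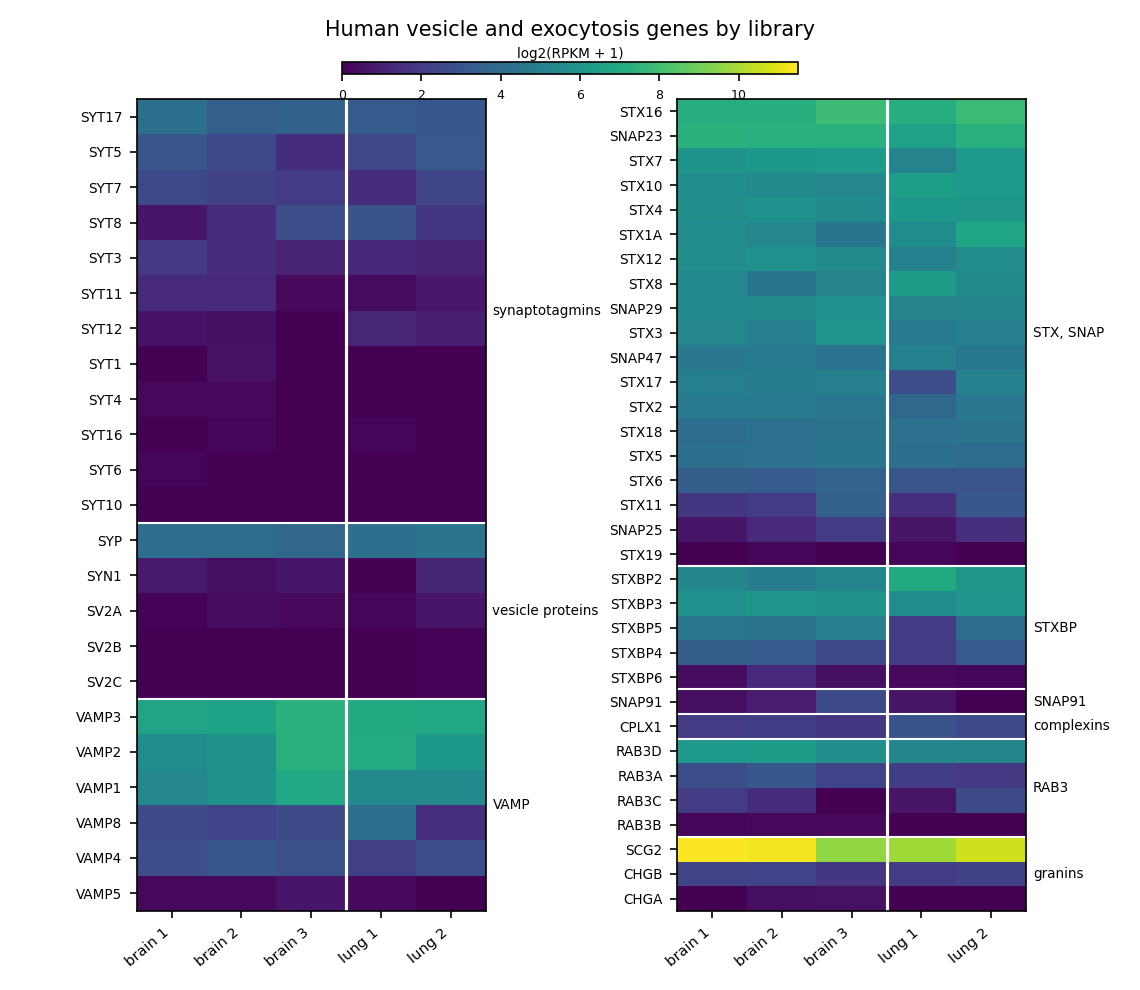
Human members by library, as log2(RPKM + 1) in colour on the scale used for the mouse genes, with rows grouped by role and ordered by mean level, brain tumors left of the white line and lung tumors right of it. SCG2 stood above all other members in every library, with 767 to 2805 RPKM in brain tumors, against 921 and 1645 RPKM in lung tumors, and most synaptotagmins, synapsins and SV2 genes were near 0.

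The granin SCG2 (chromosome 2, 223596940 to 223602361, GRCh38) dominated the human set. It had 2805, 2553 and 767 RPKM in brain tumors, against 921 and 1645 RPKM in lung tumors, from 14270, 9877 and 1129 reads against 3626 and 3720 reads. Brain tumors 1 and 2 were the highest, brain tumor 3 was the lowest of all libraries, and the groups overlapped (log2 fold change 0.52 ± 0.61, adjusted p = 0.749). SCG2 made up 67.1%, 64.6% and 31.4% of the summed RPKM of the 58 members in brain tumors, against 39.9% and 51.2% in lung tumors. The other granins listed in the human table were low: CHGB had 4.05, 3.98 and 2.56 RPKM in brain tumors, against 2.95 and 3.85 RPKM in lung tumors, and CHGA had 0, 2 and 1 reads in brain tumors, against 0 reads in both lung tumors. SCG3 and SCG5 were not listed there, nor were CPLX2, SYN2, SYN3, SYT2, SYT9 and SYT13, so that nothing can be said of their human levels.

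Most of the remaining human signal lay in SNAREs that serve all cells. STX16, of the Golgi, had 144, 152 and 234 RPKM in brain tumors, against 141 and 226 RPKM in lung tumors (log2 fold change -0.05 ± 0.37). SNAP23 (chromosome 15, 42491129 to 42533058, GRCh38) had 167, 159 and 156 RPKM in brain tumors, against 94.7 and 157 RPKM in lung tumors (log2 fold change 0.4 ± 0.34, adjusted p = 0.643). STX7, of late endosomes, had 61.8, 69.3 and 73.5 RPKM in brain tumors, against 34.5 and 72.2 RPKM in lung tumors. For SNAP23 and STX7 lung tumor 1 was the low library and lung tumor 2 was level with the brain tumors. The 3 members of this role with the lowest p were all lower on average in brain tumors and not called. STX10, of endosome to Golgi traffic, had 48.1, 44.3 and 39.5 RPKM in brain tumors, against 84.1 and 71.1 RPKM in lung tumors (log2 fold change -0.81 ± 0.32, adjusted p = 0.471). STX1A, the neuronal syntaxin, had 45.1, 39.2 and 21.1 RPKM in brain tumors, against 47 and 112 RPKM in lung tumors (log2 fold change -1.09 ± 0.48, adjusted p = 0.478), and STX8, of late endosomes, had 39.7, 21.5 and 34.8 RPKM in brain tumors, against 79.4 and 43.1 RPKM in lung tumors (-0.9 ± 0.42, adjusted p = 0.485). Neither overlapped between organs, and the lung tumor that stood out was number 2 for STX1A and number 1 for STX8.

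Human vesicle SNAREs overlapped between organs in all 5 tested members. VAMP3 had 105, 101 and 162 RPKM in brain tumors, against 124 and 114 RPKM in lung tumors (log2 fold change 0.01 ± 0.34). VAMP2 had 45.5, 58.8 and 159 RPKM in brain tumors, against 129.7 and 68.2 RPKM in lung tumors, and VAMP1 had 39.5, 59.4 and 116 RPKM in brain tumors, against 41.5 and 41.2 RPKM in lung tumors. VAMP1 and VAMP2 were both highest in brain tumor 3, the library with the lowest share of human reads (22.1%). The mouse orthologs had 4225 and 7914 reads there, against 218 and 467 human reads. VAMP4 had 3.57 to 8.0 RPKM in all libraries, and mouse Vamp4 had 69.9, 65.0 and 63.8 RPKM in brain tumors, against 68.8 and 31.0 RPKM in lung tumors.

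Of the human syntaxin-binding proteins, STXBP2 (chromosome 19, 7629793 to 7647873, GRCh38) had 38.0, 28.7 and 35.9 RPKM in brain tumors, against 124 and 66.6 RPKM in lung tumors. Its log2 fold change of -1.39 ± 0.38 had the lowest p of all human members and did not pass adjustment (0.418). STXBP5 (chromosome 6, 147204417 to 147390473, GRCh38) had 21.6, 20.7 and 31.7 RPKM in brain tumors, against 3.32 and 15 RPKM in lung tumors (log2 fold change 1.6 ± 0.57, adjusted p = 0.469). Brain and lung tumors did not overlap in either gene, and STXBP3, a partner of syntaxin 4, did (55.9, 64.6 and 56.4 RPKM in brain tumors, against 46.4 and 64.8 RPKM in lung tumors). In the mouse table Stxbp2 lay lower and Stxbp5 higher in brain tumors too. The difference between the species was not tested.

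RAB3D, the RAB3 protein of exocrine granules, was the most abundant human member of its family, with 71.0, 79.4 and 49.6 RPKM in brain tumors, against 38.4 and 37.2 RPKM in lung tumors. Every brain tumor was above both lung tumors, and the difference was not called (log2 fold change 0.78 ± 0.34, adjusted p = 0.478). RAB3A had 5.69, 7.81 and 3.93 RPKM in brain tumors, against 3.43 and 2.84 RPKM in lung tumors (log2 fold change 0.68 ± 0.45, adjusted p = 0.563). RAB3C had 15, 7 and 0 reads in brain tumors, against 2 and 12 reads in lung tumors. In the human brain tumors RAB3D thus stood above RAB3A, while in the mouse reads of the same tumors Rab3a, at 265 to 366 RPKM, stood above Rab3d, at 11.4 to 18.2 RPKM.

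Human calcium sensors and vesicle proteins were low. SYT17 had 18.2, 10.2 and 11 RPKM in brain tumors, against 9.3 and 8.09 RPKM in lung tumors (log2 fold change 0.5 ± 0.42, adjusted p = 0.638), and was the highest synaptotagmin. SYT5 had 7.24, 4.76 and 1.87 RPKM in brain tumors, against 4.44 and 8.14 RPKM in lung tumors, and SYT7 had 5.05, 3.8 and 3.12 RPKM in brain tumors, against 1.71 and 4.33 RPKM in lung tumors. Neither separated the organs. SYT8 and SYT11, with the next lowest p among the synaptotagmins, had 0.597, 1.79 and 5.89 RPKM and 1.7, 1.57 and 0.229 RPKM in brain tumors, against 6.72 and 2.49 RPKM and 0.257 and 0.746 RPKM in lung tumors. SYP had 16.2, 15.8 and 12.8 RPKM in brain tumors, against 17.9 and 20.6 RPKM in lung tumors (log2 fold change -0.35 ± 0.37, adjusted p = 0.711). CPLX1 had 2.96, 3.42 and 2.48 RPKM in brain tumors, against 6.73 and 5.05 RPKM in lung tumors (log2 fold change -0.8 ± 0.42, adjusted p = 0.507). Brain tumors lay below lung tumors in SYP and CPLX1, the opposite side from their mouse counterparts. SYN1 and SV2A, the next most abundant vesicle proteins, had 22, 7 and 5 reads and 3, 7 and 2 reads in brain tumors, against 1 and 16 reads and 4 and 9 reads in lung tumors.

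The same symbol could be set side by side in reads of both species. Of 57 symbols present in both, 29 had a mean RPKM in brain tumors over 10 times as high in the mouse as in the human table, with SV2C and SYT10 at 0 in the human table there, and 14 of those human members were tested. The same share over all symbols present in both tables was not taken, so that this count does not set the members apart from other genes. Human and mouse RPKM are separate scales, so that such a ratio does not give the ratio of reads. SYT3, at 20.8 times by RPKM, had 62, 28 and 7 human reads in brain tumors, beside 73, 115 and 267 mouse reads. SNAP25 had 10, 21 and 16 human reads in brain tumors, against 7 and 16 human reads in lung tumors, while mouse Snap25 had 3974, 7472 and 19909 reads in brain tumors, against 6 and 9 reads in lung tumors. SNAP91 had 3, 5 and 11 human reads in brain tumors, against 3 and 0 in lung tumors, and the mouse gene had 675, 1522 and 3282 reads in brain tumors, against 1 and 8 in lung tumors. SYP had 113, 84 and 26 human reads in brain tumors, against 97 and 64 in lung tumors, beside 2148, 4748 and 10522 mouse reads in brain tumors, against 9 and 62 in lung tumors. SCG2 had more human than mouse reads in brain tumors 1 and 2 and in both lung tumors, with 14270, 9877 and 1129 human reads in brain tumors, against 3626 and 3720 in lung tumors, beside 1184, 1676 and 3062 mouse reads in brain tumors, against 3 and 2 in lung tumors. How reads were assigned to human or mouse is not given in the sources used here, and its part in the low human values was not tested.

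**Figure D5:**
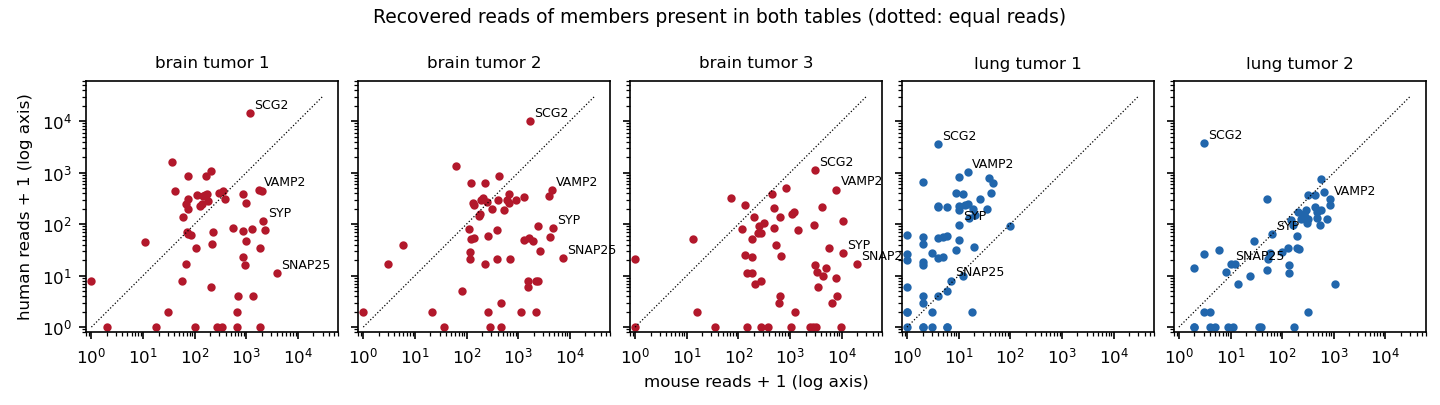
Recovered human reads against mouse reads, each plus 1 on a log axis, of members present in both tables, with 1 panel per library and brain tumors left of lung tumors. SNAP25 lay at 10 to 21 human and 3974 to 19909 mouse reads in brain tumors, while in lung tumor 1 most members lay above the line of equal reads.

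The other human genes of the release cycle were also without a call in the full comparison. Among 16 tested active zone and priming genes, 12 further vesicle proteins, 12 genes of SNARE disassembly and the exocyst, 18 endocytosis genes and 3 prohormone processing genes, limma called 0. In these lists 4, 1, 0, 3 and 1 genes were at an unadjusted p under 0.05, as were 10.5% of all human genes tested. The voom fit on the recovered reads also called 0. UNC13A, a priming gene, had 19.7, 45.9 and 14.2 RPKM in brain tumors, against 4.9 and 4.61 in lung tumors (log2 fold change 2.09, adjusted p = 0.376). VGF had 70.9, 116 and 27.0, against 26.6 and 7.15 (2.04, adjusted p = 0.459). Both were called higher with the replicate block (adjusted p = 0.0119 and 0.00132), as were 0.423% of all human genes tested. UNC13A and VGF are named after their values were seen. Among the most abundant were PPFIA1 (126, 108 and 104 RPKM in brain tumors, against 37.7 and 165 RPKM in lung tumors), EXOC5 (285, 288 and 242 RPKM in brain tumors, against 96.7 and 243 in lung tumors), AP2B1 (812, 679.9 and 918 in brain tumors, against 356 and 637 in lung tumors) and CPE (101, 151 and 90.1 in brain tumors, against 182 and 164 in lung tumors). In the first 3, lung tumor 1 was the lowest library. REST, the repressor of neuronal genes, had 81.0, 83.3 and 131 RPKM in brain tumors, against 22.3 and 75.1 RPKM in lung tumors (log2 fold change 1.2 ± 0.52, adjusted p = 0.474). Human neuronal markers outside the vesicle had 0 of 6 called, with a median log2 fold change of -0.45. MAP2 and TUBB3 lay at 2.86 (adjusted p = 0.293) and 1.0, and GAD1, NEFL, ENO2 and UCHL1 at -1.1, -0.94, -0.56 and -0.34. MAP2 was called with the replicate block (log2 fold change 2.73, adjusted p = 0.00105), and leaving out lung tumor 2 gave 3.23. The markers summed to 812, 1040.1 and 1036 RPKM in brain tumors, against 691 and 440.2 RPKM in lung tumors. MAP2, at 406, 708 and 697 RPKM in brain tumors, and UCHL1 together made up most of every sum. Human microglia and macrophage markers summed to 0.074 to 0.707 RPKM in brain tumors, against 0.843 and 1.77 RPKM in lung tumors.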

How the data were processed

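RNA sequencing libraries of 3 brain tumors and 2 lung tumors were analysed from tables of human and mouse RPKM deposited by the authors, on hg38 (GRCh38) and mm10 (GRCm38) per the submitters' processing notes. Aligner, counter, definition of gene length and assignment of reads to species are each not given in the sources used here. Columns were matched to samples by the library number in the descriptions, with 0 left unmapped. Values were tested with limma 3.58.1 (R 4.3.3; trended variance, no covariates) on log2(RPKM + 1), over genes with RPKM of at least 1 in at least 2 libraries, with Benjamini-Hochberg adjustment per species; the fit was tested on simulated data. Whole reads were recovered from ratios between libraries (Python 3.11.15), up to a common divisor per gene, so that totals are lower bounds. Every gene gave whole numbers, to within 2.9e-10 reads. Reads are not fixed for genes above 0 in a single library (4393 human, 3995 mouse). Set to 1 in brain tumor 1, the RPKM denominator per recovered read of that species lay at 0.996 to 1.003 in the others. In each role the text gives up to 3 members with the highest mean RPKM and up to 3 with the lowest p, and in each related list up to 2 called genes with the largest change, or else the 2 most abundant. Members and lists were chosen with earlier results of these data known. Human positions are from RefSeq (GRCh38.p14), which matched 58 of 58 members. Alternatives were other pseudocounts, filters, scalings and variance models, voom on recovered reads, a replicate block and leaving out each library. Sequences were not used here, and 2 members, kept in all fits and counts, are not reported here by name or in figures of single members.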

Additional observations from a re-analysis of the deposited data

How the results depend on the processing

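The human comparison rests on 3 against 2 libraries. No human member was called under any alternative except without lung tumor 2, where 2 were higher and 2 lower (0 to 2 each when 1 library was left out). Human genes of the related lists had 0 called, 3 higher with the replicate block, and 0 to 11 higher and 0 to 3 lower when 1 library was left out. In the mouse table the count of higher members was within 1.5 times the reported count under each alternative, 28 to 38 of the 38 being kept, and Syt5, Syt9, Syt10 and Stxbp5 were among those lost. Lower members numbered 5, against 3 without a filter, 2 with the replicate block and 1 to 7 when 1 library was left out. Lower genes of the mouse related lists numbered 11, against 5 without a filter and 0 to 19 when 1 library was left out. Rab3d (log2 fold change -0.58) ran between -2.38 and 1.21 when 1 library was left out. Depth limits the mouse values of lung tumor 1, where 35 of the 38 higher members had under 10 reads.

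Over all mouse genes the median log2 fold change was 0.08, against 0.22 after median-ratio scaling, -0.11 after quantile normalization and -0.15 by voom, beside member medians of 3.01, 3.12, 2.63 and 2.98. The split of all mouse calls was 2204 higher and 1253 lower, against 2143 and 1822 with quantile normalization and 2147 and 2086 with voom. Among all human genes tested 1 was called, against 0 by voom, 61 higher and 53 lower with the replicate block, and 1215 higher and 690 lower without lung tumor 2. Deviations of same-numbered libraries from their group means correlated at -0.08 and 0.06 in human and 0.03 and 0.05 in mouse genes. The deviations of the 2 lung tumors mirror each other, so that these values cannot decide whether replicate numbers pair the libraries. The replicate block kept 34 of the 38 higher mouse members.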
